A study of Mus musculus with 14 samples.

Results

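Mouse embryonic fibroblasts that received SKO together with HDAC7 were compared with fibroblasts that received GFP, over 19935 genes, to describe how far the reprogramming cells stood from the fibroblast state. The 4 SKO+HDAC7 arrays (2 at day 6 and 2 at day 10) and the 2 GFP arrays (1 per day) were chosen by their titles and are 6 of the 14 arrays of the series. The SKO+HDAC7 cells carried SKO and HDAC7. SKO+Flag cells, with 2 arrays per day, carried SKO and an empty vector in place of HDAC7, and SKO+MEF2C cells, also with 2 arrays per day, carried SKO and MEF2C. GFP cells carried GFP and no SKO, as the control. All cells were fibroblasts of the ICR strain, grown in medium for mouse embryonic stem cells and lysed at the day named, with feeder cells taken out before lysis per the labels' protocols. SKO is not spelled out in the labels and commonly stands for Sox2, Klf4 and Oct4, the last encoded by Pou5f1. Each array holds RNA of a whole culture, and the share of cells that took up each vector is unknown here. For that reason fewer cells of a type and less RNA per cell cannot be told apart in any result below. The labels call the SKO arrays of a day experiment 1 and experiment 2, without saying whether these were separate cultures or whether a number ties arrays of different vectors together. The p-values therefore measure the spread of these arrays alone, part of which could be technical. All arrays share a free-text note on a pre-iPSC sample, which played no part in the grouping.

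Fibroblasts are mesenchymal cells. They secrete collagens, proteoglycans and elastic fibre proteins, carry receptors for platelet-derived growth factor, and hold actin and myosin bundles that let them contract. When reprogramming factors act on them, an early step is the mesenchymal-to-epithelial transition, in which Snail, Slug and other repressors of E-cadherin go down and adhesion molecules of epithelial cells come up, while the late pluripotency network, with Nanog, is switched on last. HDAC7 is a class IIa histone deacetylase, a family with weak catalytic activity of its own that binds MEF2 transcription factors and recruits corepressors to their targets.

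Levels are given on the deposited log2 scale, and 1 probe set stands for each gene. A difference is SKO+HDAC7 minus GFP on this log2 scale, taken as the mean of the day 6 and the day 10 difference unless a day is named, with its standard error (SE) from limma. A gene was called, and is said to have risen or fallen, at a Benjamini-Hochberg adjusted p under 0.05 over all 19935 genes. The array medians lay between 5.68 and 5.76. The 2 arrays of a SKO group and day differed by a root mean square of 0.117 to 0.171 over all genes, and the GFP arrays of the 2 days differed by 0.228. With 1 GFP array per day, the spread of GFP is taken from the other groups. No detection calls were used, so a gene whose GFP values lie below the array median is not shown to be above background there, and its rise is a lower bound.

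Hdac7 and Pou5f1 were high on the arrays labelled as carrying them, whereas Sox2 and Klf4 stood close to the GFP level. Hdac7 lay at 11.16 and 11.16 at day 6 and 11.38 and 11.17 at day 10 in SKO+HDAC7 cells, against 7.44 at day 6 and 7.38 at day 10 in GFP cells. The 2 groups stood far apart, and the difference was 3.81 ± 0.07 (14-fold, limma adjusted p = 2.2e-11). Pou5f1, which encodes the pluripotency factor Oct4, lay at 12.01 and 12.01 at day 6 and 12.08 and 12.02 at day 10 in SKO+HDAC7 cells, against 5.24 at day 6 and 5.18 at day 10 in GFP cells. Its GFP values are below the array medians, so its difference of 6.83 ± 0.07 (at least 113-fold, limma adjusted p = 2.3e-13) is a lower bound. Sox2 lay at 5.28 and 5.16 at day 6 and 5.04 and 5.24 at day 10 in SKO+HDAC7 cells, against 4.93 at day 6 and 5.27 at day 10 in GFP cells, all below the array medians and overlapping, and its difference of 0.08 ± 0.07 did not pass (limma adjusted p = 0.44). Klf4 lay at 8.92 and 8.86 at day 6 and 9.18 and 9.02 at day 10 in SKO+HDAC7 cells, against 8.93 at day 6 and 8.66 at day 10 in GFP cells. Its SKO+HDAC7 arrays overlapped the day 6 GFP array, and the difference of 0.21 ± 0.07 only just passed (limma adjusted p = 0.047). By day, Klf4 differed by -0.03 at day 6 and 0.44 at day 10. Sox2 differed by 0.29 at day 6 and -0.13 at day 10. Where the probes of these genes lie relative to the vector inserts was not tested. Myc, a growth-promoting transcription factor that SKO does not name, rose by 0.52 ± 0.06 (limma adjusted p = 5.8e-05), with each SKO+HDAC7 array above both GFP arrays. Among the other class IIa deacetylases and MEF2 factors, Mef2a (0.86) and Mef2d (0.48) rose, and Hdac5 fell (-0.48), while Mef2c did not reach the threshold (-0.09, adjusted p by limma = 0.49); of 7 measured members of that family, Hdac7 included, 3 rose and 2 fell.

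**Figure D1:**
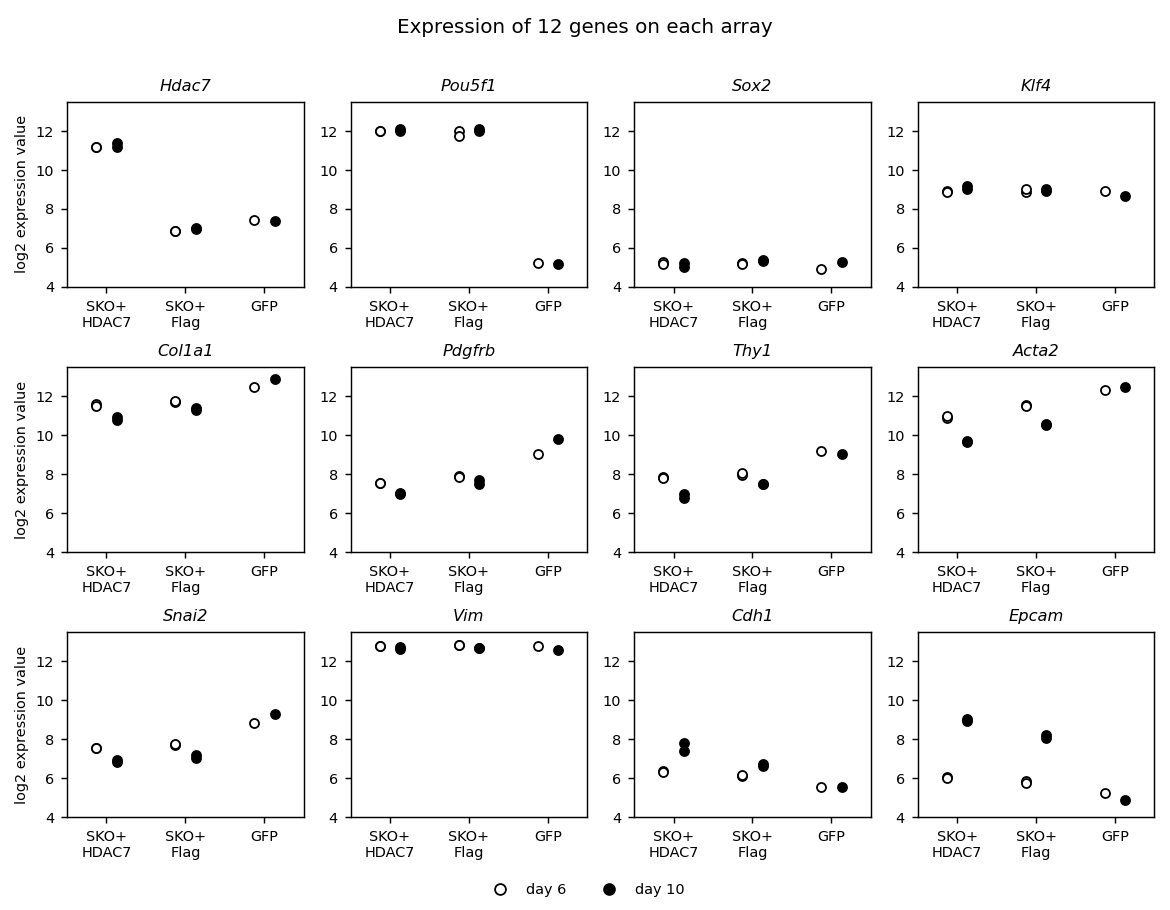
Log2 expression values (y axis) of 12 genes on each SKO+HDAC7, SKO+Flag and GFP array, with open circles for day 6 and filled circles for day 10. Hdac7 is high in SKO+HDAC7 alone among these 3 groups, Pou5f1 is high in both SKO groups, Sox2, Klf4 and Vim lie near the GFP values, Col1a1, Pdgfrb, Thy1, Acta2 and Snai2 lie below GFP, and Cdh1 and Epcam lie above it, more so at day 10.

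In all, 6665 of 19935 genes were called in SKO+HDAC7 against GFP (33.4%), 3490 higher (17.5%) and 3175 lower (15.9%). After quantile normalization 3345 were higher and 3648 lower, so the more common direction depended on the normalization. Most of these differences were small. A difference of at least 1, which is a 2-fold change, was reached by 592 raised and 387 lowered genes (2.97% and 1.94%, or 4.91% together), a difference of at least 2 by 126 and 67 (0.632% and 0.336%), and a difference of at least 3 by 32 and 7 (0.161% and 0.0351%). The middle 90% of all genes lay between -0.55 and 0.73, and the median over all genes was -0.014. SKO+HDAC7 and GFP arrays did not overlap in 7768 genes (39%), being higher in 18.8% of all genes and lower in 20.2%. Dropping the GFP array of day 10 left 4608 called genes and dropping that of day 6 left 5307, of which 4290 and 4931 were called in the same direction with all arrays. Without a GFP array of one day the fit had to be an additive design of vector and day. That design called 5986 genes with all 14 arrays, so these counts join a change of design to the loss of an array. A fit to the 6 compared arrays alone, also additive, called 4662.

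The root mean square log2 difference of an array from the GFP array of its day, over all genes, was 0.455 and 0.451 in SKO+HDAC7 at day 6 and 0.546 and 0.553 at day 10. In SKO+Flag it was 0.458 and 0.440 at day 6 and 0.509 and 0.537 at day 10, and in SKO+MEF2C 0.415 and 0.412 at day 6 and 0.462 and 0.477 at day 10. The SKO+HDAC7 arrays of day 10 thus lay above all other arrays, while those of day 6 overlapped SKO+Flag. The mean was 0.501 for SKO+HDAC7 and 0.486 for SKO+Flag (n = 4 arrays each), and the difference of 0.015 did not pass an exact permutation test within days (two-sided p = 0.17, where 36 arrangements allow no p below 0.056). All of these distances share the GFP arrays. By the median absolute difference in place of the root mean square the order turned round (-0.009).

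**Figure D2:**
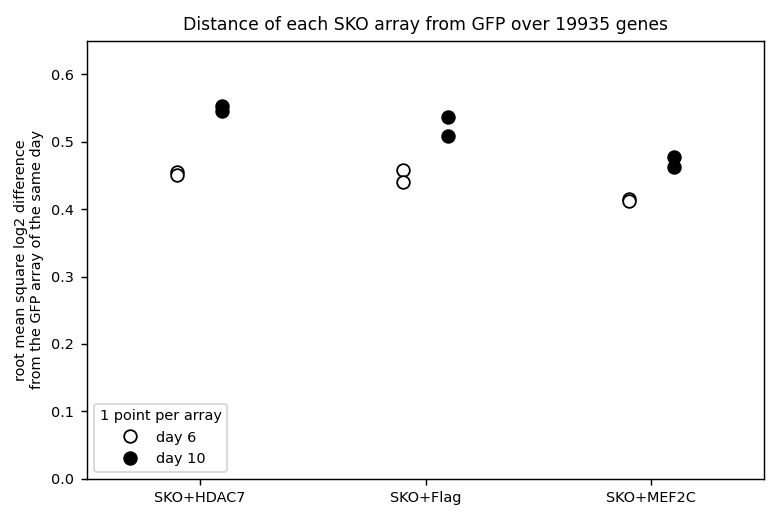
Root mean square log2 difference over 19935 genes (y axis, starting at 0) between each SKO array and the GFP array of the same day, with 1 point per array, open for day 6 and filled for day 10. The day 10 arrays of SKO+HDAC7 (0.546 and 0.553) lie highest, and the day 6 arrays of SKO+HDAC7 (0.455 and 0.451) lie beside those of SKO+Flag.

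Genes of the extracellular matrix were lower in SKO+HDAC7 cells. Of 18 measured collagens 17 fell and 0 rose, with a median difference of -0.93. Col12a1, a collagen that coats fibrils, lay at 8.27 and 8.36 at day 6 and 6.76 and 6.83 at day 10 in SKO+HDAC7 cells, against 10.04 at day 6 and 10.92 at day 10 in GFP cells. Its SKO+HDAC7 arrays were all lower than the GFP arrays, lowest at day 10, and the difference was -2.93 ± 0.06 (7.62-fold lower, limma adjusted p = 5.1e-11). Col1a1, the main chain of collagen I, had 11.62 and 11.52 at day 6 and 10.91 and 10.76 at day 10 in SKO+HDAC7 cells, against 12.48 at day 6 and 12.89 at day 10 in GFP cells (-1.48 ± 0.06, limma adjusted p = 7.4e-09), while its partner chain Col1a2 fell less (-0.64 ± 0.06). The fibril-nucleating collagens Col5a2 and Col5a1 fell by 2.18 and 1.88. On leaving out the GFP array of day 10, 11 of the 18 collagens fell, and 12 in the 6 compared arrays alone.

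Small leucine-rich proteoglycans, which bind collagen fibrils and set their width, fell in 7 of 10 members and rose in 1 (median -1.40). Ogn, which encodes mimecan and led all lowered genes, lay at 5.18 and 5.1 at day 6 and 5.3 and 5.69 at day 10 in SKO+HDAC7 cells, against 8.59 at day 6 and 9.37 at day 10 in GFP cells. Every SKO+HDAC7 value was below the array median and both GFP values were well above it, so that the difference of -3.66 ± 0.13 (limma adjusted p = 1.7e-09) is a lower bound of the fall. Aspn, the gene of asporin, fell by 3.30, Bgn, that of biglycan, by 2.55 and Lum, that of lumican, by 2.21. Prelp ran the other way at 9.89 and 9.87 at day 6 and 9.18 and 9.05 at day 10 in SKO+HDAC7 cells, against 7.07 at day 6 and 8.51 at day 10 in GFP cells (1.71 ± 0.09, limma adjusted p = 6e-08), above GFP at both days and less so at day 10. Of 13 lysyl oxidases and elastic fibre genes 11 fell and 2 rose (median -1.36). Lox, the enzyme that cross-links collagen and elastin, lay at 8.49 and 8.63 at day 6 and 7.17 and 7.18 at day 10 in SKO+HDAC7 cells, against 11.19 at day 6 and 11.74 at day 10 in GFP cells. It stood 12.1-fold lower (-3.6 ± 0.05, limma adjusted p = 2.6e-12), and its relative Loxl1 fell by 2.40 and the microfibril gene Mfap4 by 1.87. Loxl4, another lysyl oxidase, rose (0.77, and 0.63 by its other probe set).

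Secreted matricellular and identity genes of fibroblasts fell in 14 of 16 members with 0 higher (median -1.06). Svep1, a large adhesive matrix protein, had 6.27 and 6.41 at day 6 and 5.8 and 6.01 at day 10 in SKO+HDAC7 cells, against 8.76 at day 6 and 9.9 at day 10 in GFP cells (-3.21 ± 0.08, limma adjusted p = 1.3e-10). Dlk1, a membrane protein known for holding back fat cell differentiation, had 6.87 and 6.97 at day 6 and 6.67 and 6.33 at day 10 in SKO+HDAC7 cells, against 8.93 at day 6 and 10.9 at day 10 in GFP cells (-3.21 ± 0.10). Both genes were lower on each SKO+HDAC7 array than on either GFP array, and Dlk1 stood higher in GFP at day 10 than at day 6. Periostin, encoded by Postn, fell by 2.90 and dermatopontin, encoded by Dpt, by 2.58. If the GFP array of day 10 was dropped, 9 of these 16 genes fell. Of 16 matrix metalloproteinases, ADAMTS proteases and their inhibitors 12 fell and 1 rose (median -0.95). Among those that fell were the aggrecanase Adamts5 (-1.94), the gelatinase Mmp2 (-1.81) and Mmp19 (-1.80). The inhibitor Timp3 was higher (0.67), by 1.22 at day 6 but by only 0.11 at day 10. Its GFP value was 10.2 at day 6 and 11.27 at day 10, so the rise rests mainly on the GFP array of day 6.

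The contractile genes of smooth muscle and myofibroblasts fell in 14 of 15 members, with 0 higher and a median of -1.17. Many of them are targets of serum response factor, which binds the CArG box. The promoters of Myl9 and Cnn2 are shown because they held an exact CArG box, in capitals, among the 12 of these genes found in RefSeq's promoter sequences of GRCm38.p6 (250 bases before to 50 after the start, both strands searched). Myl9 lies at chr2:156775214-156775513 on the plus strand and Cnn2, chosen for its match, at chr10:79988350-79988649 on the plus strand.
Myl9: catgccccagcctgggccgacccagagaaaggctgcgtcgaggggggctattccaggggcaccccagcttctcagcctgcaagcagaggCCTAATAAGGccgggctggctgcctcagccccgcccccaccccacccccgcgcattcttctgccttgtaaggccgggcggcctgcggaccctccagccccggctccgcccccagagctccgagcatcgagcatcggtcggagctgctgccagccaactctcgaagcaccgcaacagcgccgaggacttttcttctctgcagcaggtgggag
Cnn2: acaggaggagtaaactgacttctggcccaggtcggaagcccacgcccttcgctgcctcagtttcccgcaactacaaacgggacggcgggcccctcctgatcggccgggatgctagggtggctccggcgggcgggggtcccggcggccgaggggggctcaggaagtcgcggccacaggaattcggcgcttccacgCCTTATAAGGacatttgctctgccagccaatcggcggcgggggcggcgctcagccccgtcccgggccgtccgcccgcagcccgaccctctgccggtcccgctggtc
The first base of the box lay at -161 in Myl9 and at -56 in Cnn2, in bases from the start. Of all 27025 genes with a promoter sequence 1.81% held it, and the match is a description of these letters. A window with no exact match says nothing about the factor.

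Myl9, which encodes a regulatory light chain of smooth muscle myosin, lay at 7.5 and 7.67 at day 6 and 6.38 and 6.38 at day 10 in SKO+HDAC7 cells, against 9.77 at day 6 and 10.23 at day 10 in GFP cells. It was lower on every SKO+HDAC7 array and lowest at day 10, and its difference was -3.01 ± 0.08 (limma adjusted p = 2.2e-10), and Cnn2, a calponin, fell by 1.17. Cnn1, the smooth muscle calponin, had 6.29 and 6.46 at day 6 and 5.29 and 5.36 at day 10 in SKO+HDAC7 cells, against 9.08 at day 6 and 8.99 at day 10 in GFP cells (-3.19 ± 0.08, 9.11-fold lower, limma adjusted p = 1.7e-10). At day 10 its SKO+HDAC7 values lay below the array median, so that the fall is a lower bound. Tagln, the actin-binding marker of smooth muscle, had 8.54 and 8.56 at day 6 and 6.71 and 6.82 at day 10 in SKO+HDAC7 cells, against 10.59 at day 6 and 10.64 at day 10 in GFP cells (-2.96 ± 0.06). Acta2, smooth muscle actin and the usual mark of myofibroblasts, had 10.86 and 10.97 at day 6 and 9.64 and 9.71 at day 10 in SKO+HDAC7 cells, against 12.33 at day 6 and 12.49 at day 10 in GFP cells (-2.11 ± 0.05, limma adjusted p = 2.3e-10). In none of these genes did the groups overlap. With the GFP array of day 10 left out 13 of the 15 contractile genes still passed in the lower direction, and 14 with that of day 6 left out.

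Ligands, receptors and targets of the TGF-beta pathway, which drives matrix and contractile genes in fibroblasts, fell in 11 of 18 members and rose in 3 (median -0.38). The ligand Tgfb3 had 7.13 and 7.02 at day 6 and 6.7 and 6.56 at day 10 in SKO+HDAC7 cells, against 8.86 at day 6 and 9.27 at day 10 in GFP cells (-2.21 ± 0.07, limma adjusted p = 6.8e-10). The co-receptor Tgfbr3 fell by 2.25, the latent binding protein Ltbp2 by 2.12 and the secreted target Tgfbi by 1.37, while Skil, which encodes the SMAD inhibitor SnoN, rose (0.93 ± 0.07). BMP signalling and Id genes split evenly, with 5 of 18 higher and 5 lower (median -0.11). Id1 (1.20) and Bmp6 (1.14) rose, and Id3 and Bmp4 each fell by 1.00. Leaving out the GFP array of day 6 left 2 BMP genes higher and 6 lower.

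Transcription factors of mesenchymal cells fell in 18 of 22 members and rose in 1 (median -0.52). Snai2, the E-cadherin repressor Slug, lay at 7.58 and 7.56 at day 6 and 6.92 and 6.85 at day 10 in SKO+HDAC7 cells, against 8.86 at day 6 and 9.3 at day 10 in GFP cells. It was lower on all 4 SKO+HDAC7 arrays than on both GFP arrays and fell by 1.85 ± 0.06 on average (limma adjusted p = 1e-09). Snai1, which encodes Snail, had 6.5 and 6.67 at day 6 and 6.41 and 6.19 at day 10 in SKO+HDAC7 cells, against 7.52 at day 6 and 7.79 at day 10 in GFP cells (-1.21 ± 0.08, limma adjusted p = 2.1e-07). Zeb1 (-0.76 ± 0.06) and Twist1 (-0.55 ± 0.06) also fell, whereas Zeb2, another repressor of E-cadherin, did not pass (0.11 ± 0.13, limma adjusted p = 0.58). Foxc2 and Prrx2, regulators of mesenchyme in the embryo, fell by 1.46 and 1.32, and Meox2, a homeobox gene of muscle precursors and vessels, rose (1.14). Of the 22, 12 fell without the GFP array of day 10.

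Surface markers and adhesion molecules of fibroblasts were split: 10 of 17 fell and 2 rose (median -0.25). Pdgfra, a receptor for platelet-derived growth factor, fell by 2.02 (limma adjusted p = 5.1e-09), and Pdgfrb lay at 7.53 and 7.57 at day 6 and 7.01 and 6.96 at day 10 in SKO+HDAC7 cells, against 9.04 at day 6 and 9.82 at day 10 in GFP cells (-2.17 ± 0.06). Thy1, whose loss is widely used to sort reprogramming cells, had 7.85 and 7.8 at day 6 and 6.8 and 7.0 at day 10 in SKO+HDAC7 cells, against 9.2 at day 6 and 9.05 at day 10 in GFP cells (-1.76 ± 0.06, 3.39-fold lower). The collagen-binding integrin Itga11 fell by 2.65, and the ectoenzyme gene Nt5e rose (1.35). In Pdgfra, Pdgfrb and Thy1 no SKO+HDAC7 array reached a GFP array. Vim and Cdh2 did not pass. Vim, the intermediate filament of mesenchyme, had 12.77 and 12.8 at day 6 and 12.64 and 12.74 at day 10 in SKO+HDAC7 cells, against 12.8 at day 6 and 12.59 at day 10 in GFP cells (0.04 ± 0.05, limma adjusted p = 0.58). Cdh2, which encodes N-cadherin, had 8.65 and 8.61 at day 6 and 8.07 and 8.01 at day 10 in SKO+HDAC7 cells, against 8.33 at day 6 and 8.18 at day 10 in GFP cells (0.08 ± 0.05, limma adjusted p = 0.34). Over both days their groups overlapped, and both genes remained among well expressed ones. Cdh2 stood above GFP at day 6 (0.30) and below it at day 10 (-0.14). Against SKO+Flag it was higher as the mean of days (0.48 ± 0.04, limma adjusted p = 6.3e-05). Of the 17, 6 fell without the GFP array of day 10, as in the 6 compared arrays alone.

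Genes of epithelial cell contact rose. Of 14 measured genes of EpCAM, the matriptase inhibitors and the cadherin junction 9 rose and 2 fell (median 0.51). The promoters of Spint2 and Epcam, which led the rise, are shown with the E2 box, the letters CAGGTG or CACCTG to which Snail, Slug and the ZEB factors bind, in capitals. Spint2 lies at chr7:29281928-29282227 on the minus strand and Epcam at chr17:87635729-87636028 on the plus strand (RefSeq, GRCm38.p6).
Spint2: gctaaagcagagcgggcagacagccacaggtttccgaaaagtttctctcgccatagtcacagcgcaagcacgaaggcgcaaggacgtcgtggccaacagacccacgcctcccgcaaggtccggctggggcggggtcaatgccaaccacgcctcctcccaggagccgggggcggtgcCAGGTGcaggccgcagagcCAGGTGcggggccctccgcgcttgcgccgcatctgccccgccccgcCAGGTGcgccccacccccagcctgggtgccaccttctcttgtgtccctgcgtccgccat
Epcam: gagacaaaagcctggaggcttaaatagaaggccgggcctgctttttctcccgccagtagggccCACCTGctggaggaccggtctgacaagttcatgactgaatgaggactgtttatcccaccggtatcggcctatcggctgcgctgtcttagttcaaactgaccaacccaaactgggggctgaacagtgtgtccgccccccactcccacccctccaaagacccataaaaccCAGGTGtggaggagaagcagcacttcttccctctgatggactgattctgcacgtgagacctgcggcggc
Of the 14 genes 7 were found in the promoter table and 3 of those (Spint2, Epcam and Crb3, named here for its match) held an E2 box, against 22.6% of all 27025 genes. These matches too are a description of the letters. Myl9, printed above, held the same letters once beside its CArG box.

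Epcam, the epithelial cell adhesion molecule, lay at 6.05 and 6.0 at day 6 and 9.02 and 8.93 at day 10 in SKO+HDAC7 cells, against 5.26 at day 6 and 4.9 at day 10 in GFP cells. It stood slightly above GFP at day 6 (0.76) and far above it at day 10 (4.08), for a mean of 2.42 ± 0.08 (limma adjusted p = 1.7e-09). Spint2, an inhibitor of the protease matriptase, had 7.99 and 7.94 at day 6 and 9.11 and 8.92 at day 10 in SKO+HDAC7 cells, against 6.26 at day 6 and 6.2 at day 10 in GFP cells (2.26 ± 0.06, limma adjusted p = 3e-10). E-cadherin's gene Cdh1 had 6.37 and 6.32 at day 6 and 7.79 and 7.41 at day 10 in SKO+HDAC7 cells, against 5.53 at day 6 and 5.55 at day 10 in GFP cells (1.43 ± 0.10, limma adjusted p = 5.8e-07). All 3 were higher on each SKO+HDAC7 array than on either GFP array, and the GFP values of Epcam and Cdh1 lie below the array medians. Cd24a, a surface sialoglycoprotein, rose by 2.01, and Crb3, a polarity protein, by 0.36. P-cadherin went the other way: Cdh3 had 5.36 and 5.4 at day 6 and 5.15 and 5.3 at day 10 in SKO+HDAC7 cells, against 6.75 at day 6 and 7.48 at day 10 in GFP cells (-1.81 ± 0.07). Of these 14 genes 5 rose without the GFP array of day 10.

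Keratins rose in part. Krt19, a keratin of simple epithelia, lay at 7.58 and 7.76 at day 6 and 8.99 and 9.04 at day 10 in SKO+HDAC7 cells, against 6.6 at day 6 and 5.89 at day 10 in GFP cells (2.1 ± 0.06, limma adjusted p = 4.5e-10). Krt8 rose (0.79), chiefly at day 10 (0.16 at day 6 and 1.43 at day 10), and Krt7 fell by 0.36 as the mean of days but stood at 0.02 without the GFP array of day 6; of 6 such keratins 2 rose and 1 fell. Keratinocyte markers rose in 9 of 16 with 0 lower (median 0.45), led by the p53 and p63 target Perp (2.39), the plakophilin Pkp1 (2.01) and the basal keratin Krt14 (1.32). Of the 16, 2 were above the array median on both GFP arrays and 6 on all SKO+HDAC7 arrays. Of 8 desmosome components 4 rose and 0 fell (median 0.21). Desmoplakin, encoded by Dsp, had 7.44 and 7.38 at day 6 and 7.96 and 7.68 at day 10 in SKO+HDAC7 cells, against 5.37 at day 6 and 5.53 at day 10 in GFP cells (2.16 ± 0.08, limma adjusted p = 4.4e-09), with the 2 groups well apart. The desmosomal cadherin Dsc2 rose by 1.43. Tight junction genes rose in 7 of 14 and fell in 1 (median 0.15), with F11r (1.32), which encodes the adhesion molecule JAM-A, the claudin Cldn1 (1.24) and occludin, encoded by Ocln (1.01). With the GFP array of day 10 left out, 4 tight junction genes rose. Of 13 epithelial transcription and splicing regulators 4 rose and 1 fell (median 0.14; 38.5% called, near the 33.4% of all genes), or 1 and 1 without that array. Ehf, an ETS factor of epithelia, had 6.62 and 6.64 at day 6 and 7.83 and 8.08 at day 10 in SKO+HDAC7 cells, against 4.99 at day 6 and 4.95 at day 10 in GFP cells (2.32 ± 0.09, limma adjusted p = 4e-09).

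Early pluripotency genes rose in part, and 16 of 20 genes of the late network were not called. Of 15 early and intermediate genes 7 rose and 0 fell (median 0.25). Upp1, which encodes uridine phosphorylase, lay at 8.9 and 9.07 at day 6 and 9.23 and 9.17 at day 10 in SKO+HDAC7 cells, against 5.7 at day 6 and 5.39 at day 10 in GFP cells (3.55 ± 0.07, limma adjusted p = 2.7e-11), far from GFP. L1td1, an RNA-binding protein of embryonic stem cells, rose by 2.09 and the alkaline phosphatase gene Alpl by 1.10. Lin28a (-0.06 ± 0.11, limma adjusted p = 0.74) and Sall4 (0.01 ± 0.10, limma adjusted p = 0.95) did not pass. Of 20 late genes 3 rose and 1 fell (20% called, against 33.4% of all genes; median -0.04). Nanog, the gatekeeper of the late network, had 5.27 and 5.28 at day 6 and 5.61 and 5.63 at day 10 in SKO+HDAC7 cells, against 5.51 at day 6 and 5.39 at day 10 in GFP cells. Those values overlapped, lay below the array medians and differed by 0.00 ± 0.07 (limma adjusted p = 0.99). The 3 that rose were Tfcp2l1 (1.93), a transcription factor of naive stem cells, the DNA dioxygenase gene Tet2 (1.45) and Nr0b1 (0.87). Nr0b1 did so chiefly at day 10 (0.18 at day 6 and 1.56 at day 10). Klf2 fell by 0.48. Of 17 DNA methylation and Polycomb enzymes 10 rose and 0 fell (median 0.33), among them Ezh1 (1.21), Suz12 (1.08) and Uhrf1 (1.07), which guides maintenance methylation; in the 6 compared arrays alone 6 rose.

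Proliferation genes rose as a block. All 23 mitosis and kinetochore genes rose (median 0.82), and 20 of 24 DNA replication genes rose with 0 lower (median 0.67). Mki67, the proliferation marker Ki-67, lay at 8.73 and 8.83 at day 6 and 8.87 and 8.81 at day 10 in SKO+HDAC7 cells, against 7.4 at day 6 and 6.99 at day 10 in GFP cells (1.62 ± 0.15, limma adjusted p = 6.3e-06). The ribonucleotide reductase subunit Rrm2 rose by 1.21, the replication clamp Pcna by 1.17, the helicase subunit Mcm6 by 1.14 and the centromeric histone gene Cenpa by 1.08. Without the GFP array of day 10, 19 mitosis and 18 replication genes rose. Of 16 measured p53 targets and cell cycle inhibitors 12 fell and 4 rose (median -0.38). Cdkn2b fell by 1.38, and Cdkn2a, whose products Ink4a and Arf hold back reprogramming, had 6.39 and 6.54 at day 6 and 6.61 and 6.79 at day 10 in SKO+HDAC7 cells, against 7.62 at day 6 and 7.6 at day 10 in GFP cells (-1.03 ± 0.11, limma adjusted p = 2.5e-05). Plk2 fell by 1.09. Cdkn1b, the gene of p27, rose (0.38), though its other probe set gave 0.05. Without the GFP array of day 6, 9 of these genes were lower and 1 higher, and Cdkn1c, at 0.37 with all arrays, turned to -0.07. In the 6 compared arrays alone 10 were lower and 0 higher.

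Metabolic and stress genes moved as well. Cholesterol synthesis genes rose in 15 of 17 with 0 lower (median 0.47), with Idi1 at 0.96, Msmo1 at 0.78 and the master regulator Srebf2 at 0.76. In GFP 16 of these 17 genes were lower at day 10 than at day 6, and without the GFP array of day 10, 9 rose. Glycolysis genes fell in 8 of 14 and rose in 3 (median -0.22). One that rose, the glucose transporter gene Slc2a3, had 8.31 and 8.26 at day 6 and 8.83 and 9.0 at day 10 in SKO+HDAC7 cells, against 6.12 at day 6 and 6.21 at day 10 in GFP cells (2.44 ± 0.06, limma adjusted p = 1.6e-10), and the lactate transporter gene Slc16a3 fell by 1.12. Without the GFP array of day 6, 2 glycolysis genes fell and 4 rose. Of 16 ATF4 and oxidative stress genes 12 fell and 0 rose (median -0.58), among them Trib3 (-1.69), Hmox1 (-1.06) and Atf5 (-1.03). Interferon-stimulated genes split, with 5 of 20 higher and 5 lower: Oas2 rose (1.22), and Ifit3 and Ifit1 fell by 1.31 and 1.30. Inflammatory genes split as well, with 5 of 17 higher and 6 lower. The monocyte chemokine gene Ccl2 (1.93) and Ptgs2 (1.70), which encodes cyclooxygenase-2, rose, and the stromal chemokine genes Cxcl12 and Cxcl5 fell by 2.27 and 2.09.

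Imprinted growth genes fell in 10 of 14 and rose in 1 (median -0.86). Mest lay at 7.09 and 7.15 at day 6 and 7.11 and 7.19 at day 10 in SKO+HDAC7 cells, against 9.04 at day 6 and 10.82 at day 10 in GFP cells (-2.8 ± 0.06, limma adjusted p = 3e-11), and Igf2, the fetal growth factor, lay at 8.86 and 8.92 at day 6 and 7.96 and 7.89 at day 10 in SKO+HDAC7 cells, against 10.4 at day 6 and 11.1 at day 10 in GFP cells (-2.34 ± 0.06). Neither gene overlapped between the groups, and both stood higher in GFP at day 10 than at day 6. Hox genes, which record position along the body axis in fibroblasts, were called in 13 of 37 measured members, 11 of them lower. The share called was 40% in the A, 33.3% in the B, 55.6% in the C and 11.1% in the D cluster, around the 33.4% of all genes. Hoxb9 (-0.92) and Hoxc8 (-0.81) stood furthest from GFP, and no member differed by 1 or more. The medians of the clusters were -0.17, -0.12, -0.26 and 0.04.

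Markers of other cell types showed no general rise, but single members stood out. Shares called, beside 33.4% of all genes, were 63.6% of fat cell, 46.7% of neural and glial and 42.9% of macrophage and blood cell markers. They were 41.7% of cartilage and bone markers, 20% of endoderm and trophoblast markers and 18.8% of striated muscle genes. Of 14 endothelial markers 3 rose and 2 fell (35.7% called, near the 33.4% of all genes), and their median was -0.02. Tek, the angiopoietin receptor, lay at 7.92 and 7.85 at day 6 and 9.08 and 9.21 at day 10 in SKO+HDAC7 cells, against 5.13 at day 6 and 5.14 at day 10 in GFP cells (3.38 ± 0.08, limma adjusted p = 9.2e-11), and Cd34, a sialomucin of vessels and blood progenitors, lay at 9.43 and 9.64 at day 6 and 10.57 and 10.78 at day 10 in SKO+HDAC7 cells, against 7.47 at day 6 and 6.97 at day 10 in GFP cells (2.88 ± 0.08). Neural and glial markers rose in 6 of 15 and fell in 1 (median 0.05), with Stmn2 (3.33) and the neurofilament gene Nefl (2.65) highest. Macrophage and blood cell markers had 3 of 14 higher and 3 lower (median -0.05). Laptm5, a lysosomal protein gene of blood cells, had 7.96 and 7.84 at day 6 and 8.25 and 8.1 at day 10 in SKO+HDAC7 cells, against 5.19 at day 6 and 5.55 at day 10 in GFP cells (2.67 ± 0.07). The mean level over those 14 markers ranged from 5.39 to 5.53 in SKO+HDAC7 and from 5.21 to 5.26 in GFP, near or below the array medians. Fat cell markers had 4 of 11 higher and 3 lower, with Lpl (1.77) and Scd1 (1.54) raised and Pparg at -0.47. Without the GFP array of day 10, 2 fat cell markers rose and 1 fell. Cartilage and bone markers had 2 of 12 higher and 3 lower, striated muscle genes 0 of 16 higher and 3 lower, and endoderm and trophoblast markers 0 of 15 higher and 3 lower, or 1 lower without the GFP array of day 6.

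**Figure D3:**
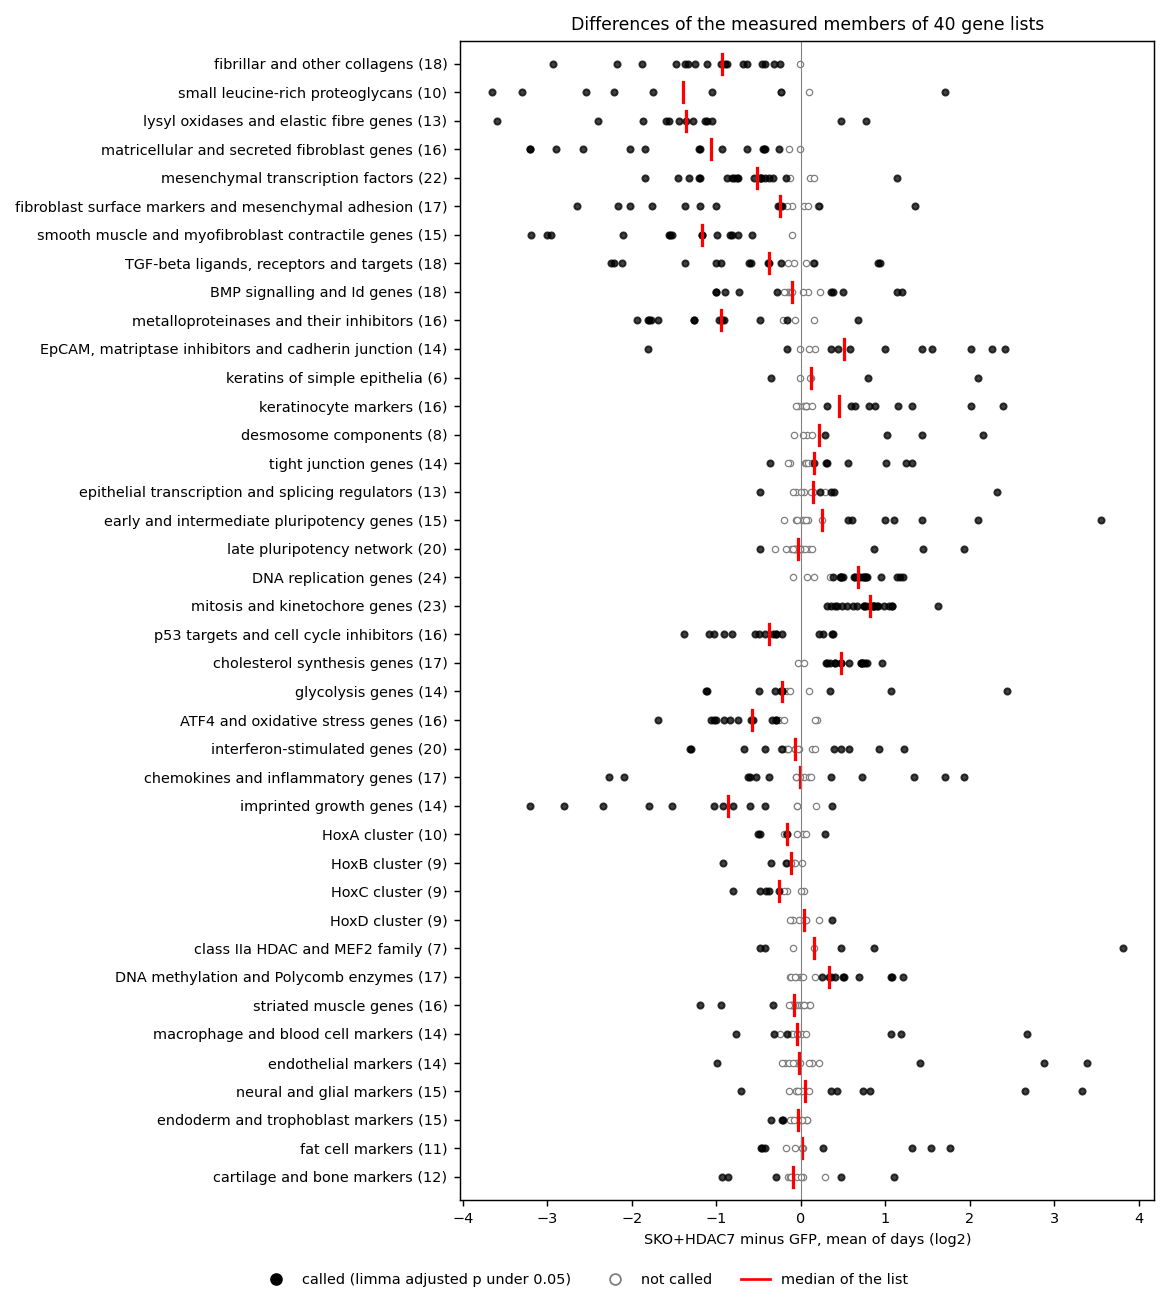
Difference SKO+HDAC7 minus GFP as the mean of days (x axis, log2) for each measured member of 40 gene lists (rows, with the number measured), filled where called by limma at an adjusted p under 0.05 and open where not, with the list median in red. Matrix, contractile and imprinted lists lie left of 0 (medians of -0.86 to -1.40), and mitosis and replication lists lie right of it (0.82 and 0.67). Endothelial, neural, macrophage and fat cell lists centre near 0 with single genes far to the right. Striated muscle and endoderm lists centre near 0 and reach no further right than 0.11 and 0.07.

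Beside Pou5f1 and Hdac7, most of the genes raised furthest had GFP values below the array medians. Aldh3a1, an aldehyde dehydrogenase abundant in the cornea, lay at 11.26 and 11.37 at day 6 and 11.46 and 11.33 at day 10 in SKO+HDAC7 cells, against 5.14 at day 6 and 5.33 at day 10 in GFP cells (6.12 ± 0.06, at least 69.7-fold, limma adjusted p = 2.3e-13). Gpr50, an orphan relative of the melatonin receptors, lay at 10.72 and 10.73 at day 6 and 10.44 and 10.46 at day 10 in SKO+HDAC7 cells, against 4.6 at day 6 and 4.59 at day 10 in GFP cells (5.99 ± 0.07). Sbspon, a secreted protein with a thrombospondin repeat, lay at 10.65 and 10.72 at day 6 and 10.69 and 10.74 at day 10 in SKO+HDAC7 cells, against 5.59 at day 6 and 5.48 at day 10 in GFP cells (5.16 ± 0.06). All 3 were about as high at day 6 as at day 10. Akr1c18, the enzyme that breaks down progesterone, lay at 10.81 and 10.78 at day 6 and 9.51 and 9.56 at day 10 in SKO+HDAC7 cells, against 5.13 at day 6 and 5.01 at day 10 in GFP cells (5.1 ± 0.05), lower at day 10 than at day 6; whether its probes also read related aldo-keto reductases was not tested. Ceacam1, an adhesion molecule of epithelia, rose by 4.64 ± 0.07, Crym, a thyroid hormone binding protein, by 4.24 ± 0.06 and Sostdc1, a secreted antagonist of BMP and Wnt signals, by 4.11 ± 0.06. Tmem229b rose by 4.0 ± 0.06, and by 2.84 on its other probe set. Gna14 (3.99), Mal (3.94) and Podxl (3.79) followed, the last a sialomucin found on podocytes and stem cells. Trh, the precursor of thyrotropin-releasing hormone, had 8.81 and 8.76 at day 6 and 10.61 and 10.78 at day 10 in SKO+HDAC7 cells, against 5.02 at day 6 and 5.43 at day 10 in GFP cells (4.52 ± 0.08), rising further between days. Msln, the mesothelial surface protein mesothelin, had 9.69 and 9.72 at day 6 and 10.56 and 10.57 at day 10 in SKO+HDAC7 cells, against 7.19 at day 6 and 5.69 at day 10 in GFP cells (3.69 ± 0.05). Its GFP arrays were not alike, the day 6 value being the higher. Such rises were not particular to SKO+HDAC7. SKO+Flag minus GFP was 5.52 in Aldh3a1, 5.8 in Gpr50 and 5.03 in Sbspon. Of these 3, only Aldh3a1 was called against SKO+Flag (0.6 ± 0.05, limma adjusted p = 3e-05). Gpr50 (0.19 ± 0.06, limma adjusted p = 0.062) and Sbspon (0.13 ± 0.05, limma adjusted p = 0.12) did not pass. At day 10 Gpr50 lay at 10.44 and 10.46 with HDAC7 and at 10.56 and 10.58 with the empty vector. In Akr1c18 (5.9) and Trh (4.94) SKO+Flag minus GFP was more than with HDAC7.

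Of the 15 genes lowered most, Mest, described above, and 4 others lay outside the matrix and contractile lists. Penk, the precursor of enkephalins, lay at 7.98 and 7.8 at day 6 and 7.86 and 7.91 at day 10 in SKO+HDAC7 cells, against 10.37 at day 6 and 11.32 at day 10 in GFP cells (-2.96 ± 0.06, limma adjusted p = 6.3e-11). Igfbp5, which binds insulin-like growth factors, lay at 6.55 and 6.37 at day 6 and 6.09 and 6.05 at day 10 in SKO+HDAC7 cells, against 8.21 at day 6 and 10.09 at day 10 in GFP cells (-2.89 ± 0.07). Rspo2, a secreted enhancer of Wnt signals, lay at 5.61 and 5.63 at day 6 and 5.33 and 5.39 at day 10 in SKO+HDAC7 cells, against 7.63 at day 6 and 8.94 at day 10 in GFP cells (-2.8 ± 0.07), below the array median on every SKO+HDAC7 array. Emb, an immunoglobulin-family membrane protein, fell by 2.72. In each of these 4 genes the groups were apart and the GFP array of day 10 was the higher GFP array.

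The distance from GFP differed between the days. At day 6, with 2 arrays against 1, 2531 genes were higher (12.7%) and 2282 lower (11.4%), or 24.1% called in all, 830 of them by at least 1 (4.16%). At day 10, 3035 were higher (15.2%) and 2542 lower (12.8%), or 28% called, 1282 of them by at least 1 (6.43%). The change of the difference between the days was itself called by limma in 1497 genes (7.51%), 661 of them upward (3.32%) and 836 downward (4.19%), and by at least 1 in 345 (1.73%). With 1 array left out in turn, the count of 1497 ranged from 1064 to 1807. It joins a change within SKO+HDAC7, where 14.6% of all genes were called between the days (7.86% higher and 6.7% lower at day 10), and a change within GFP, which rests on 1 array per day and has no test of its own. Among the 836 downward genes 771 stood higher in GFP at day 10 than at day 6, and 528 fell within SKO+HDAC7. Among the 661 upward genes 566 stood lower in GFP at day 10, and 513 rose within SKO+HDAC7. In 643 of the 1497 genes GFP moved more than SKO+HDAC7 did. A change of GFP cells with time and a deviation of a single GFP array cannot be told apart here.

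Epcam and several other genes moved further from GFP by rising within SKO+HDAC7. Epcam rose within SKO+HDAC7 by 2.95 between the days, against a change of -0.36 in GFP, so that its difference grew by 3.31 ± 0.17 (limma adjusted p = 1.9e-06). Cstdc2, a cystatin-family gene, lay at 5.85 and 6.1 at day 6 and 8.92 and 8.9 at day 10 in SKO+HDAC7 cells, against 4.9 at day 6 and 4.73 at day 10 in GFP cells and grew by 3.11 ± 0.18. The water channel Aqp3 (2.67 ± 0.15), the cationic amino acid transporter Slc7a3 (2.64 ± 0.12) and lactoferrin, encoded by Ltf (2.22 ± 0.17), behaved alike, with GFP changes of -0.36, 0.22 and 0.05. In Msln the growth of 2.37 ± 0.11 joined a rise of 0.86 in SKO+HDAC7 to a drop of the GFP value (-1.51). Of the 14 EpCAM and cadherin genes the difference changed upward in 7 and downward in 1 by this test. The downward one was Cdh3, which stood further below GFP at day 10 (-2.26) than at day 6 (-1.36).

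By list medians, collagen, elastic fibre, matricellular and metalloproteinase genes moved further from GFP through changes on both sides. The small leucine-rich proteoglycans did so mainly through GFP, and contractile genes mainly through SKO+HDAC7. The small leucine-rich proteoglycans had a median change between the days of -0.07 in SKO+HDAC7 and 1.47 in GFP, with 10 of 10 higher in GFP at day 10. Collagens had -0.20 in SKO+HDAC7 and 0.42 in GFP, lysyl oxidase and elastic fibre genes -0.24 in SKO+HDAC7 and 0.54 in GFP, and matricellular genes -0.37 in SKO+HDAC7 and 0.66 in GFP. Metalloproteinase genes had -0.41 in SKO+HDAC7 and 0.41 in GFP. Single genes departed from their list's median: Lox changed by -1.39 in SKO+HDAC7 and by 0.54 in GFP, Col12a1 by -1.52 in SKO+HDAC7 and by 0.88 in GFP, and Col1a1 by -0.74 in SKO+HDAC7 and by 0.41 in GFP. Contractile genes had -0.59 in SKO+HDAC7, where 12 of 15 fell between the days, and 0.05 in GFP. The difference became lower between the days in 12 of 18 collagens, 7 of 10 proteoglycans, 13 of 16 matricellular and 11 of 15 contractile genes. Egfl6, a secreted matrix protein, lay at 6.31 and 6.16 at day 6 and 6.14 and 5.97 at day 10 in SKO+HDAC7 cells, against 4.98 at day 6 and 8.38 at day 10 in GFP cells: SKO+HDAC7 was above GFP at day 6 and below it at day 10, and the difference turned to 1.03 without the GFP array of day 10. Sfrp2, a secreted Wnt modulator, had 9.07 and 9.08 at day 6 and 8.18 and 8.2 at day 10 in SKO+HDAC7 cells, against 6.72 at day 6 and 9.39 at day 10 in GFP cells, and its mean difference of 0.58 turned to -0.94 without the GFP array of day 6. Lgr5, a receptor for R-spondins, had 6.47 and 6.47 at day 6 and 5.42 and 5.52 at day 10 in SKO+HDAC7 cells, against 5.86 at day 6 and 7.82 at day 10 in GFP cells, and its mean of -0.87 turned to 0.41 without the GFP array of day 10. Anxa10, an annexin, differed: it lay at 7.98 and 7.96 at day 6 and 5.09 and 5.12 at day 10 in SKO+HDAC7 cells, against 4.62 at day 6 and 4.89 at day 10 in GFP cells, a change of -2.86 within SKO+HDAC7 itself (limma adjusted p = 1.7e-08). Genes called in opposite directions at the 2 days were few: 25 were lower at day 6 and higher at day 10, and 66 the other way.

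**Figure D4:**
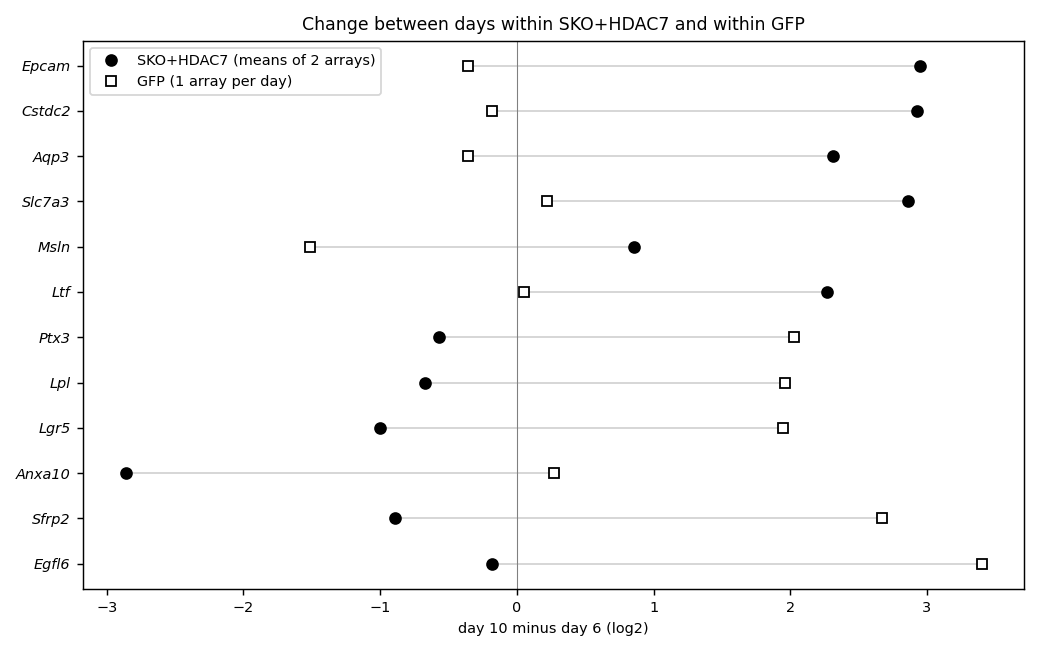
Change from day 6 to day 10 (x axis, log2, day 10 minus day 6) within SKO+HDAC7 (filled circles, means of 2 arrays per day) and within GFP (open squares, 1 array per day) for the 12 genes named for the change of their difference. Epcam, Cstdc2, Aqp3, Slc7a3 and Ltf change mostly within SKO+HDAC7, as does Anxa10 downward, while Egfl6, Sfrp2, Lgr5, Lpl and Ptx3 change mostly within GFP.

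What HDAC7 added to SKO was read from SKO+HDAC7 against SKO+Flag (4 arrays each), in which GFP does not enter. There limma called 2171 genes (10.9%), 963 higher (4.83%) and 1208 lower (6.06%), or 637 higher and 1519 lower after median centring, and 37 by at least 1 (0.186%). An additive design of vector and day called 1075 on all 14 arrays and 1387 on the compared arrays alone. SKO+HDAC7 minus GFP and SKO+Flag minus GFP share the GFP arrays, so their values are given side by side only. In Epcam they were 2.42 and 1.9, in Cdh1 1.43 and 0.87, in Snai2 -1.85 and -1.64, and in Ogn -3.66 and -3.56. Snai1 (0.00 ± 0.06 against SKO+Flag, limma adjusted p = 1) and Ogn (-0.11 ± 0.10, limma adjusted p = 0.57) did not pass between the SKO groups. The SE of these differences gives their precision, and a p that misses the threshold does not show that the SKO groups are alike.

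Contractile genes fell against SKO+Flag in 8 of 15 with 0 higher, with a median of -0.23 beside 0.018 over all genes. Acta2 lay at 10.86 and 10.97 at day 6 and 9.64 and 9.71 at day 10 in SKO+HDAC7 cells, 11.55 and 11.52 at day 6 and 10.54 and 10.58 at day 10 in SKO+Flag cells, and 12.33 at day 6 and 12.49 at day 10 in GFP cells. Its arrays formed 3 separate levels at each day, with SKO+HDAC7 lowest and GFP highest, and SKO+HDAC7 minus SKO+Flag was -0.75 ± 0.04 (limma adjusted p = 2.4e-06). Collagens fell against SKO+Flag in 13 of 18 with 1 higher (median -0.33). Lox lay at 9.47 and 9.44 at day 6 and 8.55 and 8.52 at day 10 in SKO+Flag cells, between the other 2 groups at both days. Keratinocyte markers rose against SKO+Flag in 8 of 16 with 0 lower, DNA replication genes in 11 of 24 with 0 lower, interferon-stimulated genes in 8 of 20 with 0 lower and glycolysis genes in 6 of 14 with 1 lower. Of 17 cholesterol genes 0 were called and of 16 ATF4 and stress genes 1, with list medians of -0.02 and -0.03. Krt19 lay at 7.58 and 7.76 at day 6 and 8.99 and 9.04 at day 10 in SKO+HDAC7 cells, 6.49 and 6.47 at day 6 and 7.29 and 7.22 at day 10 in SKO+Flag cells, and 6.6 at day 6 and 5.89 at day 10 in GFP cells. SKO+Flag lay just below GFP at day 6 and above it at day 10, with a mean difference of 0.62 ± 0.06 from GFP (limma adjusted p = 9.7e-06). SKO+HDAC7 stood above both at each day. Other genes went less far from GFP with HDAC7 than with the empty vector: Akr1c14, an aldo-keto reductase, lay at 6.97 and 6.85 at day 6 and 6.51 and 6.74 at day 10 in SKO+HDAC7 cells, 8.86 and 8.84 at day 6 and 7.63 and 8.18 at day 10 in SKO+Flag cells, and 4.98 at day 6 and 5.05 at day 10 in GFP cells. Its SKO+HDAC7 arrays stood between the other 2 groups, -1.61 ± 0.10 from SKO+Flag (limma adjusted p = 3.2e-06). Frem2, a basement membrane protein of the Fraser complex, differed from GFP by 0.86 in SKO+HDAC7 and by 2.37 in SKO+Flag. Vcam1, a vascular adhesion molecule, differed by 0.72 in SKO+HDAC7 and by 2.0 in SKO+Flag.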

How the data were processed

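Fibroblast RNA was measured on 14 Affymetrix gene arrays. The authors deposited log2 values per probe set, normalized by RMA in Partek per the submitters' processing notes; tool versions and the genome build of the probes are not given in the sources used here. RMA draws all arrays onto a common distribution, so a shift of all genes together would not show. Of 28815 probe sets 21780 had 1 gene symbol, 1605 had several and 5430 had none in GEO's platform annotation, and the last 2 kinds were left out of the gene comparisons. For 998 genes with several probe sets, the one with the highest mean over the 14 arrays was kept, which gave 19935 genes.

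Groups came from the array titles. limma 3.58.1 (R 4.3.3) was fitted to all 14 arrays with a mean for each vector and day (6 residual and 4.71 prior degrees of freedom), and p-values were adjusted by Benjamini-Hochberg over all genes. The number of arrays limits the precision. Of 623 entries in 40 gene lists 588 were measured. Named genes were a set of key genes, the 15 raised and 15 lowered most, the largest of each list, the 12 with the largest change between days and the 15 furthest from SKO+Flag. The members and lists were chosen with earlier results of these data known. Alternatives were another prior, array weights, an additive design, the compared arrays alone, median centring or quantile normalization, averaging a gene's probe sets, a level filter, a replicate block and leaving out each array. Where a GFP array was left out, the mean of days came from the additive design of vector and day. The fit to the compared arrays alone used that design too.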

Additional observations from a re-analysis of the deposited data

Results flagged for a closer look

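In 1497 genes the difference SKO+HDAC7 minus GFP was not the same at day 10 as at day 6 by limma's test of the change itself, which rests on 1 GFP array per day. All values here are the day 10 difference minus the day 6 difference on the log2 scale. Among the genes named in the text the difference grew upward in Epcam (3.31), Cstdc2 (3.11), Aqp3 (2.67), Slc7a3 (2.64), Msln (2.37), Ltf (2.22), Trh (1.5), Cdh1 (1.23), Podxl (1.11) and Mal (0.75).

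Matrix genes, genes of secreted or membrane proteins and the imprinted gene Mest went the other way: Postn (-2.46), Col12a1 (-2.40), Dlk1 (-2.39), Igfbp5 (-2.27), Lox (-1.93), Mest (-1.75), Aspn (-1.73), Svep1 (-1.58), Rspo2 (-1.56), Emb (-1.20), Col1a1 (-1.15), Col1a2 (-0.96) and Penk (-0.95). Contractile genes did so too, with Tagln (-1.83), Myl9 (-1.66), Acta2 (-1.40) and Cnn1 (-0.95), as did the surface markers Pdgfrb (-1.34) and Thy1 (-0.78), the E-cadherin repressors Snai2 (-1.12) and Twist1 (-0.81), and Cdh2 (-0.44). The furthest downward were Egfl6 (-3.58), Sfrp2 (-3.55), Anxa10 (-3.14), Lgr5 (-2.96), Lpl (-2.63) and Ptx3 (-2.60). Some strongly raised genes were raised less at day 10, namely Akr1c18 (-1.14), Tmem229b (-1.07) and Sostdc1 (-0.66).

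Of 7035 probe sets without a single gene name, which enter no comparison of genes, 1127 were called in SKO+HDAC7 against GFP (16%), 456 higher and 671 lower, whereas 32.7% of the 21780 named probe sets were called.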

How the results depend on the processing

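A difference of at least 1 was asked for in addition to the call, which left 979 genes for the mean of days, 830 at day 6, 1282 at day 10, 345 for the change between days and 37 against SKO+Flag. An additive design of vector and day called 1075 genes against SKO+Flag on all 14 arrays and 1387 on the compared arrays alone; the cause was not tested. By the median absolute difference the distance from GFP was smaller in SKO+HDAC7 than in SKO+Flag (-0.009). After quantile normalization lowered genes outnumbered raised ones against GFP: 3345 were higher and 3648 lower for the mean of days. The counts were 2580 higher and 2609 lower at day 6, and 2854 higher and 2879 lower at day 10.

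Leaving out 1 array at a time gave 4608 to 7069 called genes for the mean of days, 3932 to 5176 at day 6, 4685 to 5933 at day 10, 1064 to 1807 for the change between days and 1469 to 2404 against SKO+Flag, and a distance difference of 0.008 to 0.023. Without the GFP array of day 6 the direction turned in Krt7 (0.02), Cdkn1c (-0.07) and Sfrp2 (-0.94), and Hoxa6 reached 0.0; without that of day 10 these genes stood at -0.74, 0.82, 2.1 and -0.35. Without the GFP array of day 10 it turned in Pkp2 (-0.02), Egfl6 (1.03) and Lgr5 (0.41), which stood at 0.61, -2.09 and -2.15 without that of day 6. Of 209 named genes 201 were called and 38 lost the call under at least 1 alternative, 25 of them on the compared arrays alone.

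Same-numbered arrays of SKO+HDAC7 and SKO+Flag deviated together with a correlation of -0.086 at day 6 and 0.152 at day 10, which does not show that the experiment numbers pair them. With a replicate block 6650 genes were called for the mean of days, 4781 at day 6, 5547 at day 10, 1464 for the change between days and 2152 against SKO+Flag. Signal near background limits the size of the differences of genes below the array medians.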
